A study of Arabidopsis thaliana with 15 samples.

Results

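The 52 loci described here belong to the WRKY family, one of the large families of plant transcription factors. They were taken by their locus identifiers from a table of 33601 Arabidopsis thaliana genes. Of these 52 genes, 47 had more than 1 CPM (counts scaled to one common library total) in at least 3 of 15 libraries and were tested together with all 18935 genes past that filter. The other 5, WRKY9, WRKY35, WRKY41, WRKY55 and WRKY72, were too low to test. Of the 47, 36 were over 1 CPM in all 15 libraries, and 7 (WRKY30, WRKY31, WRKY38, WRKY50, WRKY51, WRKY62 and WRKY75) in 12 or fewer. WRKY31 was the 1 member that passed without any wild-type library over 1 CPM.

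Messenger RNA came from whole rosettes of the accession Columbia-0, with 3 libraries for each of 5 genotypes. Besides the wild type (WT) these were ref4-1 and ref4-3, which both carry mutations in the Mediator subunit gene MED5B, cdk8-1, a mutant of the Mediator kinase gene CDK8, and the double mutant ref4-3 cdk8-1. All plants were 20 days old, grew at 23 °C in 16 h light and 8 h dark, and were sampled 6.5 h after dawn with no further treatment. Every library was a pool of 5 rosettes from different pots, so the p-values measure the spread between such pools.

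WRKY proteins share a DNA-binding domain with a conserved signature that begins with the amino acids tryptophan, arginine, lysine and tyrosine, followed by a zinc finger. They bind W-boxes, short DNA elements that are frequent before defence genes and before WRKY genes themselves, so that members act on each other. In rosette leaves they are best known for the salicylic acid and jasmonate branches of immunity, for camalexin synthesis and for leaf senescence. Group I proteins carry a pair of WRKY domains, group II proteins carry 1 and are divided into IIa to IIe, and group III proteins have a zinc finger of a different kind. WRKY19, a fusion with an immune receptor, is counted here in group I by its usual classification, but only 1 signature and no zinc finger of the searched forms was found in its coding sequence.

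The signature can be read in the coding sequences of TAIR10.1, the RefSeq assembly. It was found 62 times in the 52 members, and its sixth codon read CAA 34 times, CAG 26 times and AAG 2 times, in WRKY50 and WRKY51. The 7 codons are shown for a member of group IIa, a member of group III, both domains of the group I member WRKY33, and these 2 variants, with the sixth codon in capitals. It encodes glutamine where it reads CAA or CAG and lysine where it reads AAG.
WRKY40: tggaggaaatatggaCAGaaa
WRKY70: tggaggaaatatggaCAAaag
WRKY33, first domain: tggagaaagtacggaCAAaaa
WRKY33, second domain: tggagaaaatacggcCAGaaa
WRKY50: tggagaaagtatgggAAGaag
WRKY51: tggaggaagtatggcAAGaaa

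Upstream of the annotated start of each gene, 300 bases were searched on both strands for the W-boxes TTGACC and TTGACT, which do not overlap each other. At least 1 was present before 23 of the 52 members (44.2%), against 32% of 32833 promoters of the same length from genes in the table. At least 2 were present before 9 members (17.3%, against 7.63% of all), and 3 before WRKY30 and WRKY33. The 4 windows below belong to members with several W-boxes whose transcripts were lower in cdk8-1. They are written 5′ to 3′ toward the gene in TAIR10.1 coordinates, with W-boxes in capitals, and GGTCAA or AGTCAA is a W-box on the opposite strand.
WRKY33 (chr2:16107935-16108234, plus strand): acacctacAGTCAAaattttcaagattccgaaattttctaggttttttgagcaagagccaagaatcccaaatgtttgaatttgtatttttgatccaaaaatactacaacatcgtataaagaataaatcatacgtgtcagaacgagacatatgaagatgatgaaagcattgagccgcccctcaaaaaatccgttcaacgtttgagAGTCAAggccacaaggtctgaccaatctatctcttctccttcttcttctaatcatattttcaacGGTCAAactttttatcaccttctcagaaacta
WRKY53 (chr4:12393983-12394282, minus strand): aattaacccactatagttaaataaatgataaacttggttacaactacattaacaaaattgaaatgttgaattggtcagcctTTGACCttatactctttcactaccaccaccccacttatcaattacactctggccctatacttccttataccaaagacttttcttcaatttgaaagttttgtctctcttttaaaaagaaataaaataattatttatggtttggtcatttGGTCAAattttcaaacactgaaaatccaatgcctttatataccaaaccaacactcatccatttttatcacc
WRKY30 (chr5:8154711-8155010, minus strand): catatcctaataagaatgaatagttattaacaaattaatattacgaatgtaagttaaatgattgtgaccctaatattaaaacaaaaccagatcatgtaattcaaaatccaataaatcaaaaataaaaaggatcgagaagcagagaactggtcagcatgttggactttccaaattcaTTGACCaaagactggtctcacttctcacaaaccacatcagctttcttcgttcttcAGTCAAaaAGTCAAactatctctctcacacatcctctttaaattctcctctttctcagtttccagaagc
WRKY62 (chr5:352096-352395, minus strand): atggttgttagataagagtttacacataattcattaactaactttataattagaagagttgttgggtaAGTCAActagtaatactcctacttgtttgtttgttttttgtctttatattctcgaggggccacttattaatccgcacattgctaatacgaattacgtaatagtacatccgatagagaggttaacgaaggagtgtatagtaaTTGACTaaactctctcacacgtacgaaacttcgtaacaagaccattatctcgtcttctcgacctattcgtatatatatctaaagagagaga

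**Figure D1:**
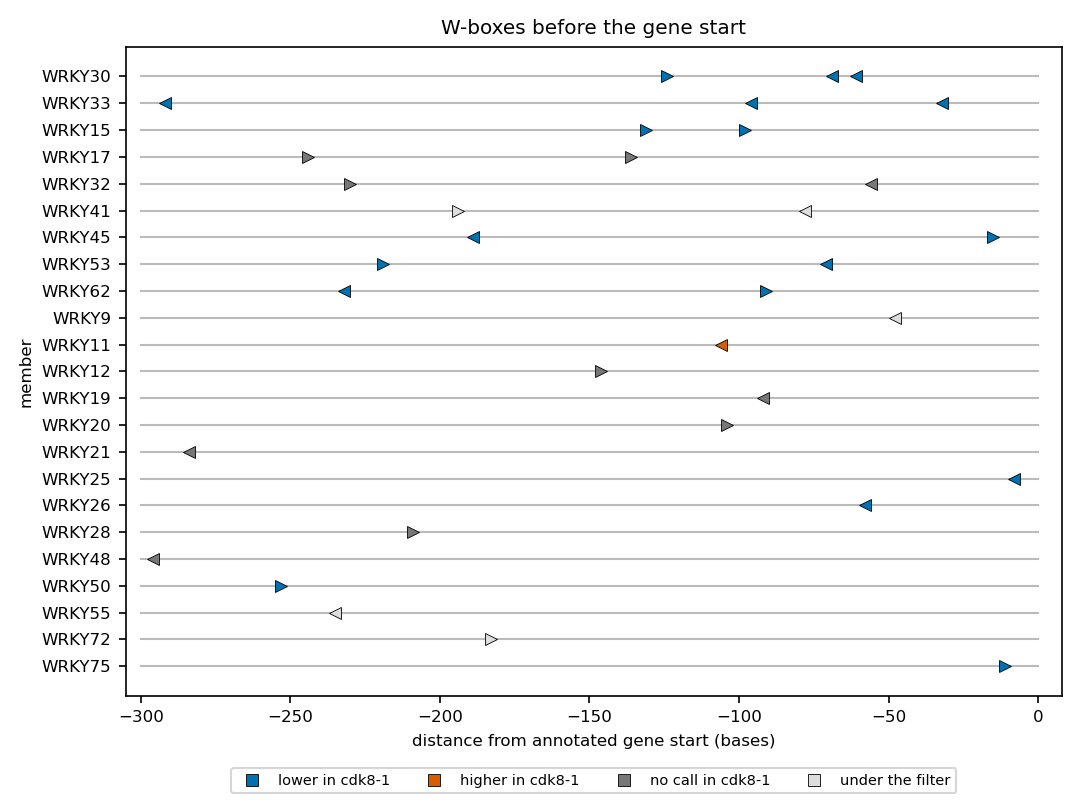
Distance in bases of each W-box from the annotated gene start, for the 23 of 52 members with at least 1 in 300 bases. Triangles point right for the gene's own strand and left for the opposite strand, and their colour gives the call in cdk8-1 against WT. WRKY30 and WRKY33 carry 3 each, and WRKY25, WRKY75 and WRKY45 each have 1 within the last 20 bases.

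A W-box was present before 10 of the 21 members that were lower in cdk8-1 than in WT (47.6%) and before 8 of the 24 members with no call there (33.3%). Over all genes tested these shares were 39% and 30.7%. WRKY18, WRKY40, WRKY46, WRKY38 and WRKY51, which all fell in cdk8-1, had neither sequence in this window.

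The libraries held 9573567 to 16803904 gene counts, so that 1 count was worth 0.0595 to 0.104 CPM. CDK8 itself stood at 4.38 to 4.70 CPM in cdk8-1 and 4.38 to 6.57 in ref4-3 cdk8-1, against 16.5 to 22.6 in the other genotypes. MED5B transcripts ranged from 20.6 to 30.7 CPM over all libraries, and their level checks nothing about alleles that alter the protein. The markers of the labelled tissue were abundant: the 4 leaf genes (RBCS1A, RCA, LHCB1.2 and LHCB1.3) summed to 32000 to 32400 CPM in WT. Of the 4 root genes, EXPA7 and EXPA18 were at 0 in every library and RHS19 reached at most 0.0816 CPM, whereas SCR stood at 20.4 to 34.9 CPM. SCR was called higher than in WT in ref4-1 (0.29 ± 0.10, adjusted p = 0.0353), ref4-3 (0.43 ± 0.09, 0.00135) and the double mutant (0.29 ± 0.09, 0.0213), and its part in the results was not tested. The 4 flower genes summed to at most 3.14 CPM and the 3 seed storage genes to at most 0.857 CPM.

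Per length of transcript, WRKY70 was the highest member in WT at 80.6 RPKM (CPM per kilobase of annotated exon), followed by WRKY54 at 41.5. WRKY70 and WRKY54 are close relatives in group III that act together in salicylic acid signalling and restrain leaf senescence. WRKY18, WRKY15, WRKY33 and WRKY3 came next, between 21.3 and 23.0 RPKM, and each overlapped its neighbours in this order. Among the 47, WRKY31 was the lowest in WT at 0.168 RPKM, below WRKY14 at 0.887. The CPM of all 52 members summed to 857 ± 49 (SD, n = 3) in WT and 663 ± 37.1 in cdk8-1, while it reached 1080 ± 84.9 in ref4-3.

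Far more members were lower than higher without CDK8. In cdk8-1, 21 of the 47 members were lower than in WT and 2 higher at an adjusted p under 0.05 (edgeR's quasi-likelihood test, Benjamini-Hochberg adjustment over all genes tested, as throughout), and 16 of the 21 were lower by at least 2-fold. Of all genes tested, 19.8% were called in this comparison, 8.06% higher and 11.8% lower. Shares of all genes at the 2-fold cut were not taken, here or in later comparisons. The median log2 fold change of the members was -0.45, against 0.00 for all genes. Among the members lower, WRKY30, WRKY51, WRKY62 and WRKY75 had no cdk8-1 library over 1 CPM before normalisation. They passed the filter only through other genotypes, so their falls were partly fixed by the filter. In whole rosettes, fewer cells of a type and less RNA per cell cannot be told apart. The summed leaf markers were 37900 to 40600 CPM in cdk8-1 against 32000 to 32400 in WT (3 of 4 called higher), and the 4 xylem markers 122 to 136 against 79.9 to 92.2 (1 called higher); their part in the result was not tested.

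**Figure D2:**
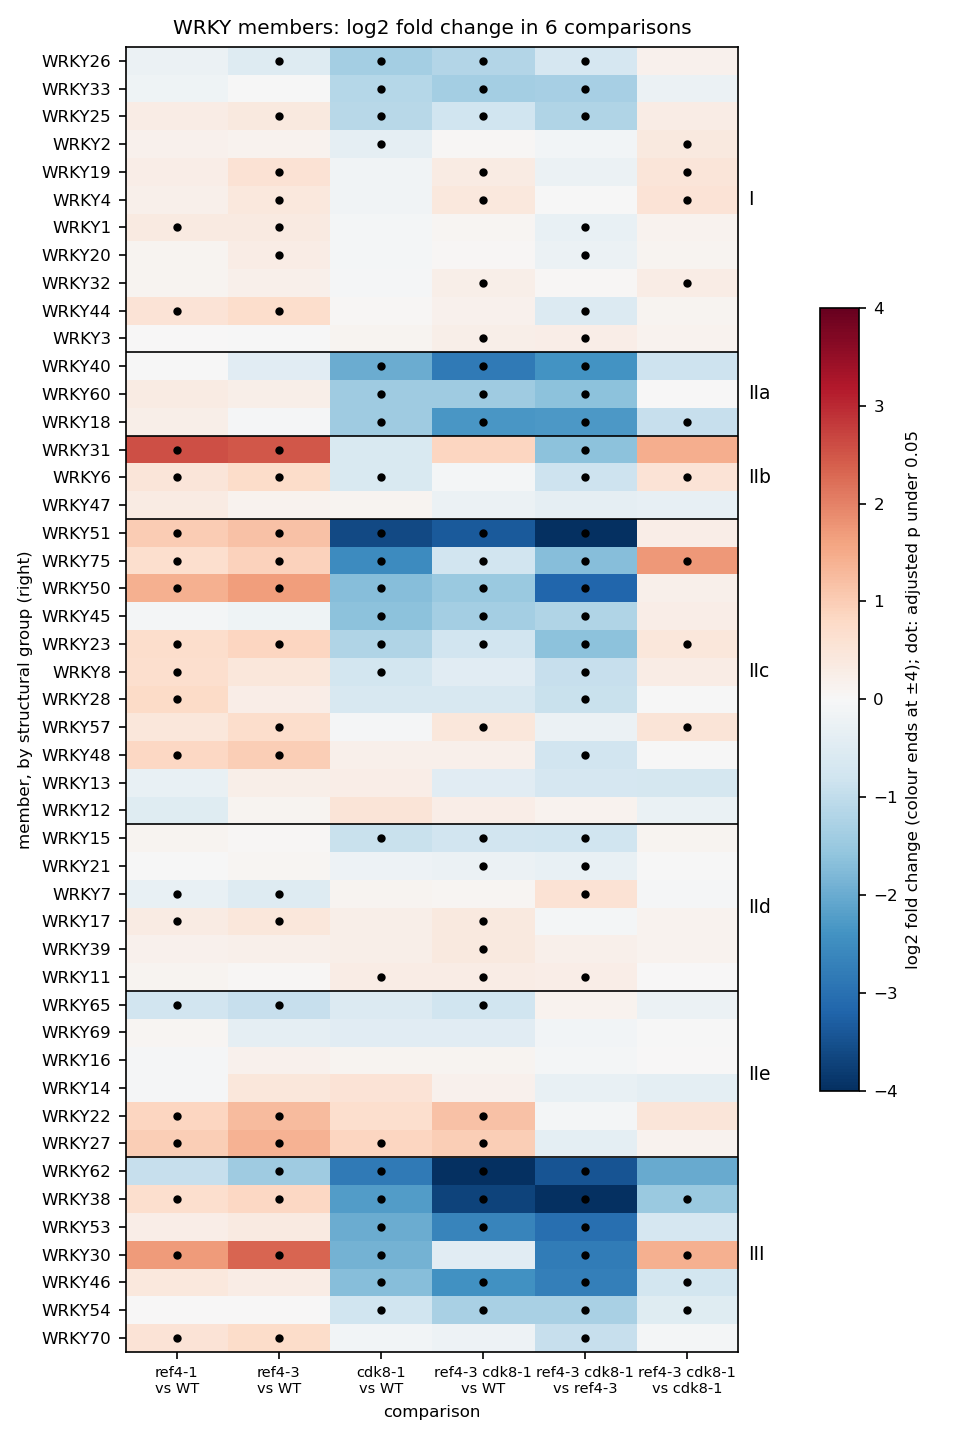
Log2 fold change of the 47 tested members in 6 comparisons, in rows ordered by structural group and in columns by comparison; red is higher and blue lower, and a dot marks an adjusted p under 0.05. The 3 members of group IIa and 6 of the 7 members of group III carry a dot on blue in cdk8-1 against WT.

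Group IIa has 3 members, WRKY18, WRKY40 and WRKY60, which bind each other and mainly restrain defence genes, and all 3 fell in cdk8-1. WRKY18 (AT4G31800, chr4:15382777-15385100) stood at 52.4, 49.3 and 38.0 CPM in WT, 16.2, 16.2 and 20.2 in cdk8-1, 9.28, 6.85 and 11.6 in ref4-3 cdk8-1, 67.9, 50 and 43.9 in ref4-1, and 31.6, 47.5 and 56.6 in ref4-3. WRKY40 (AT1G80840, chr1:30383561-30385499) stood at 15.6, 16.7 and 13.8 CPM in WT, 5.14, 3.04 and 3.28 in cdk8-1, 2, 2.41 and 2.04 in ref4-3 cdk8-1, 19.6, 15.5 and 9.39 in ref4-1, and 5.52, 14.1 and 14.6 in ref4-3. WRKY60 (AT2G25000, chr2:10629662-10631413), which acts downstream of these partners in abscisic acid signalling, stood at 15.2, 12.7 and 13.5 CPM in WT, 4.30, 6.73 and 4.43 in cdk8-1, 6.57, 3.49 and 5.69 in ref4-3 cdk8-1, 20.7, 15.2 and 15.7 in ref4-1, and 16.2, 15.1 and 17.1 in ref4-3. In all 3 cases every library without CDK8 lay below every WT library, and the ref4 libraries overlapped the WT range. In cdk8-1 against WT the log2 fold changes (± SE, n = 3 in each group) were -1.41 ± 0.21 (adjusted p = 9.5e-05) for WRKY18, -1.995 ± 0.32 (adjusted p = 0.000204) for WRKY40, and -1.43 ± 0.20 (adjusted p = 4.63e-05) for WRKY60. Within ref4-3, replicate 1 was low for WRKY18 and WRKY40, but not for WRKY60.

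WRKY33, the group I regulator of camalexin synthesis and of resistance to necrotrophic fungi, carries 3 of the W-boxes shown above. WRKY33 (AT2G38470, chr2:16108235-16110766) stood at 46.2, 44.6 and 41.7 CPM in WT, 18.5, 25.1 and 17.1 in cdk8-1, 17.9, 16.6 and 17.3 in ref4-3 cdk8-1, 39.0, 37.4 and 40.7 in ref4-1, and 37.8, 46.0 and 47.1 in ref4-3. Both genotypes without CDK8 lay far below all others, with a log2 fold change in cdk8-1 of -1.13 ± 0.11 (adjusted p = 1e-06). WRKY25 and WRKY26, which act with WRKY33 in heat responses, fell as well, at -1.10 ± 0.12 (adjusted p = 2.37e-06) and -1.35 ± 0.15 (adjusted p = 5.1e-06). WRKY26 (AT5G07100, chr5:2204206-2205965) stood at 11.3, 9.04 and 12.2 CPM in WT, 4.63, 4.15 and 3.99 in cdk8-1, 5.28, 4.32 and 4.82 in ref4-3 cdk8-1, 9.81, 8.73 and 9.28 in ref4-1, and 7.40, 6.52 and 8.99 in ref4-3. It was also the 1 group I member to fall in ref4-3 (-0.51 ± 0.14, adjusted p = 0.00671), a call that was lost when scaling used library sizes alone (adjusted p = 0.0554). WRKY15 of group IId, known from growth under osmotic stress, fell in cdk8-1 as well (-0.88 ± 0.11, adjusted p = 1.51e-05). The remaining group I member to fall was WRKY2, an abscisic acid regulator (-0.36 ± 0.10, adjusted p = 0.013), whose call was lost without WT replicate 1, WT replicate 2 or cdk8-1 replicate 1 (adjusted p up to 0.0803).

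In group III, 6 of the 7 tested members fell in cdk8-1, with a group median of -1.88. That median is the value of WRKY30. Like WRKY62, it had no cdk8-1 library over 1 CPM, so both falls were partly fixed by the filter. WRKY53 (AT4G23810, chr4:12392370-12393982), a promoter of leaf senescence, stood at 14.4, 9.55 and 13.2 CPM in WT, 4.21, 2.40 and 2.75 in cdk8-1, 2.71, 1.59 and 1.68 in ref4-3 cdk8-1, 16.7, 12.4 and 16.4 in ref4-1, and 14.7, 12.5 and 20.96 in ref4-3. WRKY46 (AT2G46400, chr2:19043411-19044955), which works with WRKY70 and WRKY53 in basal resistance, stood at 13.0, 13.4 and 15.2 CPM in WT, 3.62, 4.70 and 4.61 in cdk8-1, 2.21, 2.16 and 3.36 in ref4-3 cdk8-1, 22.3, 14.2 and 19.3 in ref4-1, and 16.6, 13.5 and 20.96 in ref4-3. WRKY54 (AT2G40750, chr2:17000419-17002528) stood at 64.5, 61.0 and 52.8 CPM in WT, 29.7, 40.4 and 32.3 in cdk8-1, 25.1, 21.4 and 26.3 in ref4-3 cdk8-1, 59.8, 49.4 and 73.3 in ref4-1, and 53.4, 57.3 and 67.6 in ref4-3. In each, no library without CDK8 reached the lowest WT library. Their log2 fold changes in cdk8-1 were -1.98 ± 0.26 (adjusted p = 2.21e-05) for WRKY53, -1.69 ± 0.21 (adjusted p = 1.47e-05) for WRKY46 and -0.80 ± 0.14 (adjusted p = 0.000359) for WRKY54. WRKY53 overlaps the gene AT4G23800 on the opposite strand by 341 bases, and whether strand was used in counting is not given in the sources used here.

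**Figure D3:**
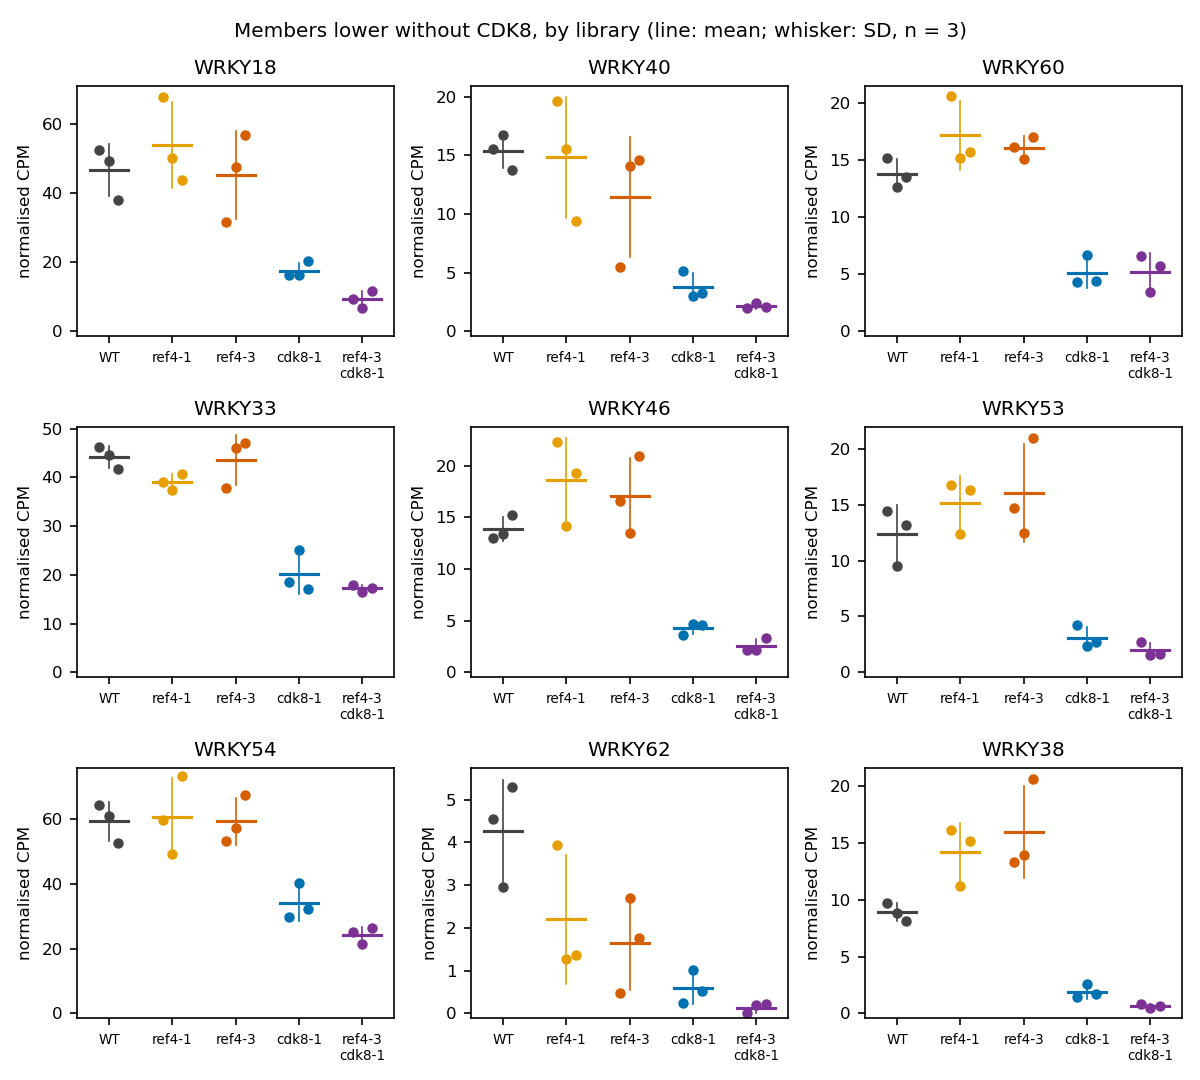
Normalised CPM (linear axes from 0) of 9 members in every library of the 5 genotypes; points are libraries, horizontal lines means and whiskers 1 SD (n = 3). For each of the 9, all cdk8-1 and ref4-3 cdk8-1 libraries lie below all WT libraries.

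WRKY38 and WRKY62 are related group III proteins that limit salicylic acid dependent resistance. WRKY38 (AT5G22570, chr5:7495455-7496990) stood at 9.71, 8.79 and 8.16 CPM in WT, 1.43, 2.58 and 1.68 in cdk8-1, 0.857, 0.508 and 0.657 in ref4-3 cdk8-1, 16.1, 11.2 and 15.2 in ref4-1, and 13.3, 13.9 and 20.6 in ref4-3. WRKY62 (AT5G01900, chr5:350925-352095) stood at 4.56, 2.96 and 5.30 CPM in WT, 0.253, 1.01 and 0.532 in cdk8-1, 0, 0.19 and 0.219 in ref4-3 cdk8-1, 3.94, 1.28 and 1.37 in ref4-1, and 0.489, 2.69 and 1.75 in ref4-3. Both were close to 0 in the double mutant, where WRKY62 rested on 0 to 3 counts per library. In cdk8-1 the log2 fold changes were -2.23 ± 0.25 (adjusted p = 4.78e-06) for WRKY38 and -2.84 ± 0.58 (adjusted p = 0.00162) for WRKY62. WRKY38 was higher in ref4-3 (0.84 ± 0.18, adjusted p = 0.000982), whereas WRKY62 was lower (-1.41 ± 0.46, adjusted p = 0.0218), a call lost without WT replicate 1, WT replicate 3 or ref4-3 replicate 1 (adjusted p up to 0.104) and in DESeq2 (0.108). In ref4-1, WRKY38 was higher by 0.66 ± 0.18 (adjusted p = 0.0132), which was lost without WT replicate 3 or ref4-1 replicate 1 (adjusted p up to 0.0672).

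Within group III, WRKY70 was the 1 tested member not called in cdk8-1. WRKY70 (AT3G56400, chr3:20908711-20910623) stood at 128, 116 and 112 CPM in WT, 87.5, 129.6 and 110.0 in cdk8-1, 104, 100.3 and 108 in ref4-3 cdk8-1, 178, 161 and 183 in ref4-1, and 177, 203 and 214 in ref4-3. The cdk8-1 libraries overlapped those of WT, with a log2 fold change of -0.12 ± 0.11 (adjusted p = 0.486), and whether this differs from the fall of its partner WRKY54 was not tested. WRKY70 was raised in both MED5B mutants, by 0.55 ± 0.11 (adjusted p = 0.000959) in ref4-1 and 0.74 ± 0.11 (adjusted p = 2.3e-05) in ref4-3. WRKY54 was not called in either mutant, at 0.02 ± 0.13 (adjusted p = 0.937) and 0.00 ± 0.13 (adjusted p = 1).

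WRKY50 and WRKY51, the members of group IIc with lysine in the signature, are needed for the repression of jasmonate signalling by salicylic acid. WRKY51 (AT5G64810, chr5:25908247-25909881) stood at 5.59, 4.14 and 6.89 CPM in WT, 0.506, 0.553 and 0.266 in cdk8-1, 0.643, 0.444 and 0.511 in ref4-3 cdk8-1, 12.2, 10.5 and 10.6 in ref4-1, and 9.64, 8.81 and 18.7 in ref4-3. WRKY50 (AT5G26170, chr5:9146879-9148391) stood at 3.70, 1.10 and 3.03 CPM in WT, 0.506, 1.29 and 0.62 in cdk8-1, 0.857, 1.01 and 0.876 in ref4-3 cdk8-1, 6.98, 6.29 and 7.70 in ref4-1, and 8.73, 6.12 and 9.91 in ref4-3. Both were higher in every MED5B single mutant library than in any WT library, and WRKY51 was under 1 CPM in all libraries without CDK8. The fall of WRKY51 in cdk8-1, -3.62 ± 0.44 (adjusted p = 9.94e-06), was the greatest of the family there. WRKY51 passed the filter only through WT and MED5B single mutant libraries, so this fall was partly fixed by the filter. WRKY50 fell by 1.70 ± 0.42 (adjusted p = 0.00753), a call lost without WT replicate 1 (adjusted p = 0.0517), and its WT and cdk8-1 libraries overlapped. Their rises in ref4-3 were 1.66 ± 0.28 (adjusted p = 0.000111) for WRKY50 and 1.16 ± 0.24 (adjusted p = 0.000837) for WRKY51.

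WRKY75 (AT5G13080, chr5:4149738-4151201), a group IIc regulator of phosphate starvation responses that also promotes senescence, stood at 1.29, 1.35 and 1.51 CPM in WT, 0.169, 0.277 and 0.266 in cdk8-1, 0.857, 0.634 and 0.949 in ref4-3 cdk8-1, 2.21, 2.33 and 2.11 in ref4-1, and 2.095, 3.26 and 2.67 in ref4-3. It was low throughout, with 2 to 3 counts per cdk8-1 library. It rose in ref4-3 (0.93 ± 0.23, adjusted p = 0.00341). The rise in ref4-1 (0.68 ± 0.24, adjusted p = 0.0476) was lost when any of 12 libraries was left out, all but ref4-3 replicates 1 and 2 and ref4-3 cdk8-1 replicate 2 (adjusted p up to 0.128). In cdk8-1 it fell (-2.51 ± 0.38, adjusted p = 0.000102). In the double mutant it lay between cdk8-1 and WT, higher than in cdk8-1 (1.74 ± 0.41, adjusted p = 0.00318) and lower than in WT (-0.77 ± 0.28, adjusted p = 0.0341). The difference from WT was lost in DESeq2 (adjusted p = 0.113) and without 1 of 4 libraries, WT replicates 2 and 3 and ref4-3 cdk8-1 replicates 1 and 2 (up to 0.155). Of the other IIc members, WRKY23, an auxin-responsive gene of root development, fell in cdk8-1 (-1.22 ± 0.13, adjusted p = 2.65e-06), as did WRKY45, which activates a phosphate transporter (-1.65 ± 0.39, adjusted p = 0.00479). WRKY8 fell by 0.74 ± 0.21 (adjusted p = 0.0187), a call lost without WT replicate 1, cdk8-1 replicate 1 or cdk8-1 replicate 2 (adjusted p up to 0.0907).

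Only WRKY27 and WRKY11 were higher in cdk8-1 than in WT. WRKY27 (AT5G52830, chr5:21410769-21412526), a group IIe gene known from bacterial wilt, stood at 2.23, 1.69 and 1.93 CPM in WT, 3.46, 4.33 and 2.83 in cdk8-1, 3.57, 4.06 and 4.09 in ref4-3 cdk8-1, 4.21, 4.31 and 2.95 in ref4-1, and 5.10, 5.63 and 4.80 in ref4-3. WRKY11 (AT4G31550, chr4:15289788-15291934), a group IId gene that limits basal resistance, stood at 29.5, 27.2 and 26.7 CPM in WT, 34.7, 33.6 and 34.6 in cdk8-1, 33.99, 34.2 and 35.2 in ref4-3 cdk8-1, 31.4, 28.2 and 29.6 in ref4-1, and 26.2, 30.8 and 29.3 in ref4-3. Neither overlapped WT in cdk8-1, and the log2 fold changes were 0.85 ± 0.21 (adjusted p = 0.00815) for WRKY27 and 0.30 ± 0.07 (adjusted p = 0.00524) for WRKY11. The call of WRKY27 was lost without cdk8-1 replicate 2 (adjusted p = 0.0537). WRKY17, the close relative of WRKY11, was not called in cdk8-1 (0.24 ± 0.10, adjusted p = 0.103).

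In the MED5B mutants more members were higher than lower. In ref4-1, 17 members were higher and 2 lower than in WT, where 20.9% of all genes were called, 10.7% higher and 10.2% lower. In ref4-3, 20 were higher and 4 lower, where 39.9% of all genes were called, 20.3% higher and 19.6% lower. The median log2 fold change of the members was 0.26 in ref4-1 and 0.29 in ref4-3, against 0.02 for all genes in both. Both comparisons used the same WT libraries, so values of both alleles are given side by side. The count of 17 fell to 11 without WT replicate 3 or ref4-1 replicate 1. Scaling by library sizes alone put the median of all genes at 0.11 in ref4-1 and 0.19 in ref4-3, and gave 23 higher and 0 lower in ref4-1 and 30 higher and 3 lower in ref4-3. The summed leaf markers were 20600 to 27000 CPM in ref4-1 and 19300 to 21100 in ref4-3, with all 4 called lower in each. The 4 xylem markers summed to 54.6 to 65.3 CPM in ref4-1 (3 called lower) and 51 to 73.2 in ref4-3 (2 called lower), against 79.9 to 92.2 in WT. The part of either list in the result was not tested.

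WRKY31 and WRKY30 rose most. WRKY31 (AT4G22070, chr4:11691172-11694590), a group IIb gene, stood at 0.086, 0.592 and 0.42 CPM in WT, 0.253, 0.0922 and 0.354 in cdk8-1, 1.21, 0.508 and 0.292 in ref4-3 cdk8-1, 2.90, 1.92 and 1.90 in ref4-1, and 1.54, 2.28 and 2.59 in ref4-3. It was at 1 to 7 counts in WT libraries and passed the filter only through mutant libraries, so its call was partly fixed by the filter. WRKY30 (AT5G24110, chr5:8153115-8154710), a group III gene with 3 W-boxes that responds to oxidative stress, stood at 1.72, 1.52 and 2.02 CPM in WT, 0.843, 0.461 and 0.0886 in cdk8-1, 1.21, 1.14 and 1.46 in ref4-3 cdk8-1, 5.53, 4.95 and 7.07 in ref4-1, and 9.22, 6.52 and 10.9 in ref4-3. The rises were 2.59 ± 0.48 (adjusted p = 0.00079) in ref4-1 and 2.50 ± 0.49 (adjusted p = 0.000526) in ref4-3 for WRKY31. For WRKY30 they were 1.71 ± 0.27 (adjusted p = 0.000187) and 2.34 ± 0.26 (adjusted p = 1.29e-06). WRKY30 also fell in cdk8-1 (-1.88 ± 0.45, adjusted p = 0.00557), where WRKY31 was not called (-0.62 ± 0.79, adjusted p = 0.642).

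WRKY27 and WRKY22, both of group IIe, also rose in both alleles. WRKY22 (AT4G01250, chr4:522530-524249), which acts in the response to bacterial flagellin and in dark-induced senescence, stood at 2.41, 1.94 and 1.34 CPM in WT, 2.87, 2.95 and 3.19 in cdk8-1, 3.43, 4.76 and 4.52 in ref4-3 cdk8-1, 4.15, 3.38 and 2.74 in ref4-1, and 4.61, 4.49 and 4.496 in ref4-3. WRKY27 rose by 1.00 ± 0.21 (adjusted p = 0.00181) in ref4-1 and 1.40 ± 0.20 (adjusted p = 2.19e-05) in ref4-3. WRKY22 rose by 0.87 ± 0.22 (adjusted p = 0.00839) in ref4-1, lost without WT replicate 3 (adjusted p = 0.0575), and by 1.25 ± 0.21 (adjusted p = 0.000143) in ref4-3. WRKY48 (AT5G49520, chr5:20090648-20093346), a group IIc repressor of basal defence, stood at 6.28, 3.80 and 3.70 CPM in WT, 5.73, 4.98 and 5.23 in cdk8-1, 5.93, 5.14 and 4.89 in ref4-3 cdk8-1, 9.26, 7.92 and 7.17 in ref4-1, and 7.54, 8.64 and 11.3 in ref4-3. It rose by 0.83 ± 0.19 (adjusted p = 0.00454) in ref4-1 and 0.99 ± 0.19 (adjusted p = 0.000443) in ref4-3. Other rises in both alleles were those of WRKY23 (0.71 ± 0.11 and 0.87 ± 0.10), of WRKY1 (0.35 ± 0.07 and 0.36 ± 0.07) and of WRKY44 (0.55 ± 0.14 and 0.71 ± 0.14). WRKY6 (0.50 ± 0.15 and 0.75 ± 0.15) and WRKY17 (0.31 ± 0.10 and 0.47 ± 0.09) rose in both as well. In ref4-1 the call of WRKY6 was lost without 1 of 3 libraries (adjusted p up to 0.114). That of WRKY17 was lost there without 1 of 4 (up to 0.116). WRKY44 is TTG2, a regulator of trichomes and seed coat pigment, and its call in ref4-1 was lost without WT replicate 1 (adjusted p = 0.0548).

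**Figure D4:**
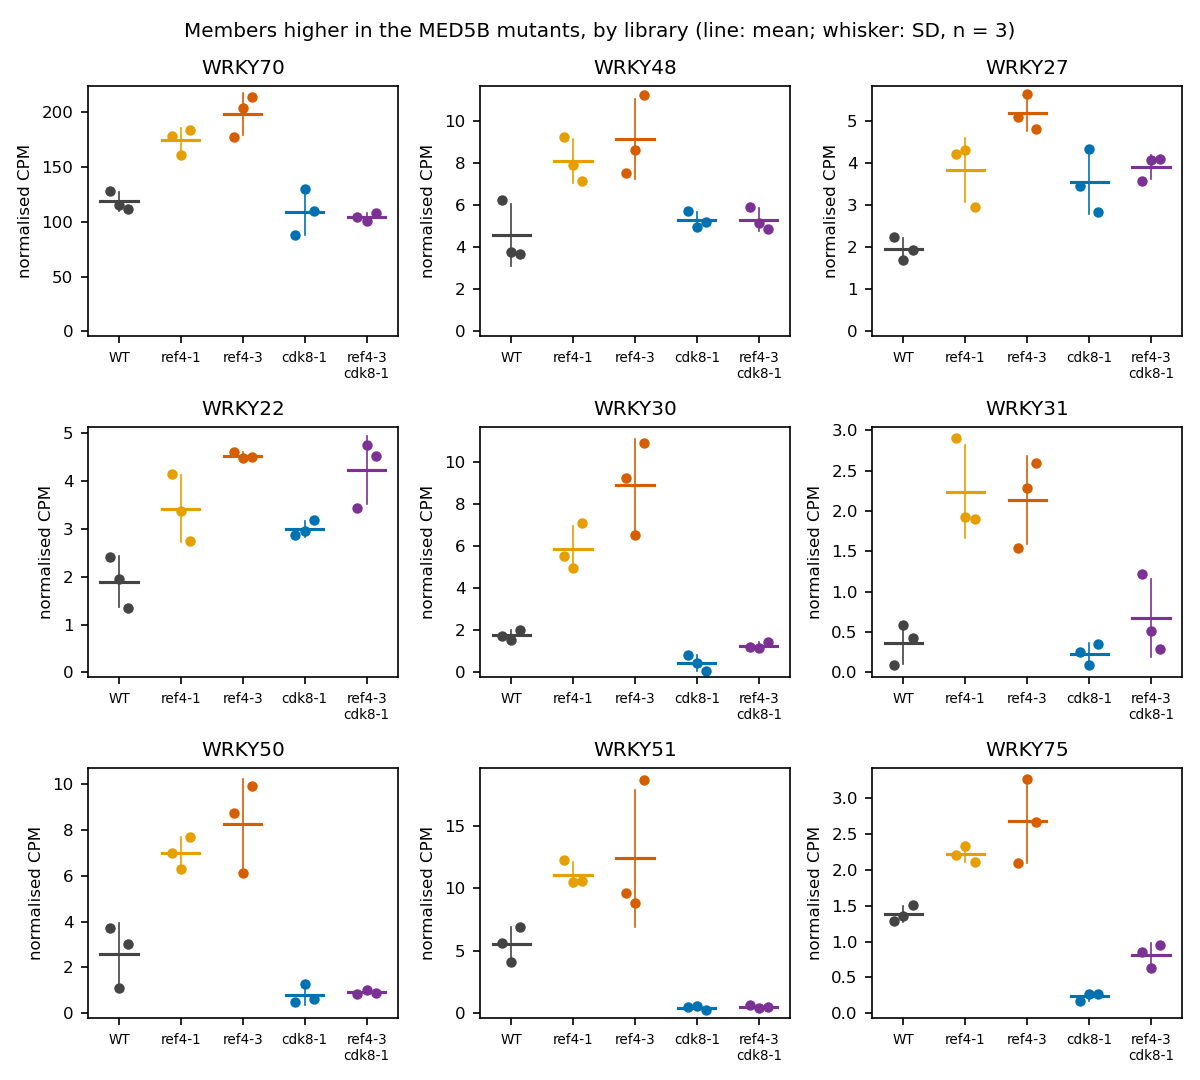
Normalised CPM (linear axes from 0) of 9 members in every library of the 5 genotypes; points are libraries, horizontal lines means and whiskers 1 SD (n = 3). All ref4-1 and ref4-3 libraries lie above all WT libraries in each panel, while the double mutant is near WT for WRKY70 and WRKY48 and near the bottom for WRKY50 and WRKY51.

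WRKY65 and WRKY7 were the 2 members that fell in ref4-1. WRKY65 (AT1G29280, chr1:10236337-10237990), of group IIe, stood at 2.23, 2.79 and 1.68 CPM in WT, 1.69, 1.38 and 1.51 in cdk8-1, 1.36, 1.14 and 1.39 in ref4-3 cdk8-1, 1.18, 1.57 and 1.05 in ref4-1, and 1.47, 0.816 and 1.22 in ref4-3. WRKY7 (AT4G24240, chr4:12571538-12573783), a calmodulin-binding member of group IId, stood at 15.6, 16.8 and 15.9 CPM in WT, 17.1, 18.2 and 17.0 in cdk8-1, 17.4, 16.3 and 16.9 in ref4-3 cdk8-1, 13.3, 11.9 and 14.2 in ref4-1, and 10.5, 10.2 and 13.1 in ref4-3. WRKY7 fell by 0.30 ± 0.10 (adjusted p = 0.0362) in ref4-1 and fell by 0.51 ± 0.10 (adjusted p = 0.000483) in ref4-3. WRKY65 fell by 0.78 ± 0.26 (adjusted p = 0.042) in ref4-1 and fell by 0.92 ± 0.27 (adjusted p = 0.0106) in ref4-3. Neither call in ref4-1 held in DESeq2 (adjusted p = 0.0759 for WRKY7 and 0.112 for WRKY65). The call of WRKY7 in ref4-1 was also lost without any WT library or ref4-1 replicate 1 or 2 (adjusted p up to 0.173). That of WRKY65 in ref4-1 was lost without WT replicate 1 or 2, ref4-1 replicate 1 or 3, ref4-3 replicate 3, or ref4-3 cdk8-1 replicate 1 or 3 (up to 0.187), and in ref4-3 without WT replicate 2 or ref4-3 replicate 2 (up to 0.0674). WRKY7 in ref4-3 was called whichever library was left out.

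Between the 2 alleles themselves, edgeR called 0 of the 47 members, where 10.9% of all genes were called, 4.52% higher in ref4-3 and 6.39% lower. At an unadjusted p under 0.05 there were 9 members, 7 of them higher in ref4-3, and DESeq2 called 1. The share of all genes at this unadjusted threshold was not taken. The largest of these 9 differences was that of WRKY30, at 0.63 ± 0.21 (adjusted p = 0.063).

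The ref4-3 cdk8-1 double mutant was set against ref4-3 to measure the loss of CDK8 in the MED5B mutant background. Against ref4-3, 28 of the 47 members were lower and 3 higher, where 33% of all genes were called (15.9% higher and 17% lower), and 17 were lower by at least 2-fold. The median of the members was -0.68, against 0.01 for all genes. WRKY38 (-4.56 ± 0.27, adjusted p = 8.56e-10), WRKY51 (-4.52 ± 0.35, adjusted p = 1.66e-08) and WRKY62 (-3.45 ± 0.85, adjusted p = 0.0039) fell furthest. WRKY50 (-3.16 ± 0.32, adjusted p = 4.65e-07), WRKY53 (-3.01 ± 0.26, adjusted p = 5.19e-08) and WRKY30 (-2.80 ± 0.26, adjusted p = 1.93e-07) followed. WRKY38, WRKY51, WRKY62 and WRKY75 had no double mutant library over 1 CPM before normalisation. They passed only through other genotypes, so their falls against ref4-3 and WT were partly fixed by the filter. WRKY70 fell by 0.93 ± 0.11 (adjusted p = 1.93e-06) to a level not called against WT (-0.19 ± 0.11, adjusted p = 0.167). Summed leaf markers were 26500 to 26600 CPM in the double mutant and 19300 to 21100 in ref4-3 (3 of 4 called higher), xylem markers 97.2 to 130 against 51 to 73.2 (3 of 4 called higher), and their part in the result was not tested.

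The 3 members that were higher in the double mutant than in ref4-3 were WRKY7, WRKY11 and WRKY3, each by less than 2-fold. WRKY7 rose by 0.58 ± 0.10 (adjusted p = 0.00014), to a level not called against WT (0.07 ± 0.09, adjusted p = 0.598). WRKY11 rose by 0.26 ± 0.07 (adjusted p = 0.00647). WRKY3 (AT2G03340, chr2:1014350-1017222), a group I gene of resistance to necrotrophic fungi, stood at 47.6, 46.1 and 46.8 CPM in WT, 48.8, 51.9 and 49.7 in cdk8-1, 54.9, 55.9 and 55.2 in ref4-3 cdk8-1, 46.8, 46.6 and 48.7 in ref4-1, and 48.2, 44.0 and 47.0 in ref4-3, a rise of 0.25 ± 0.05 (adjusted p = 0.00129) against ref4-3.

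The effect of cdk8-1 can be compared between backgrounds without shared libraries. Of the 21 members that were lower in cdk8-1 than in WT, 20 (95.2%) were also lower in ref4-3 cdk8-1 than in ref4-3, and these made up 71.4% of the 28 lower there. WRKY2 was the exception. Over all genes the corresponding shares were 69.8% of 2232 and 48.3% of 3226. Across the 47 members the log2 fold changes of the 2 comparisons had a Pearson correlation of 0.879 and a Spearman correlation of 0.825, against 0.728 and 0.57 across all 18935 genes. These are correlations over genes, so their points are no independent replicates. Among the 20 are WRKY30, WRKY38, WRKY51, WRKY62 and WRKY75, whose falls in at least 1 of these comparisons were partly fixed by the filter. The shares and correlations of the members include them. For the effect of ref4-3 with and without CDK8, 7 of the 20 members higher in ref4-3 than in WT (35%) were also higher in the double mutant than in cdk8-1, where they were 77.8% of 9. Over all genes the shares were 50.9% of 3840 and 63% of 3105, and whether the members differ from all genes was not tested.

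**Figure D5:**
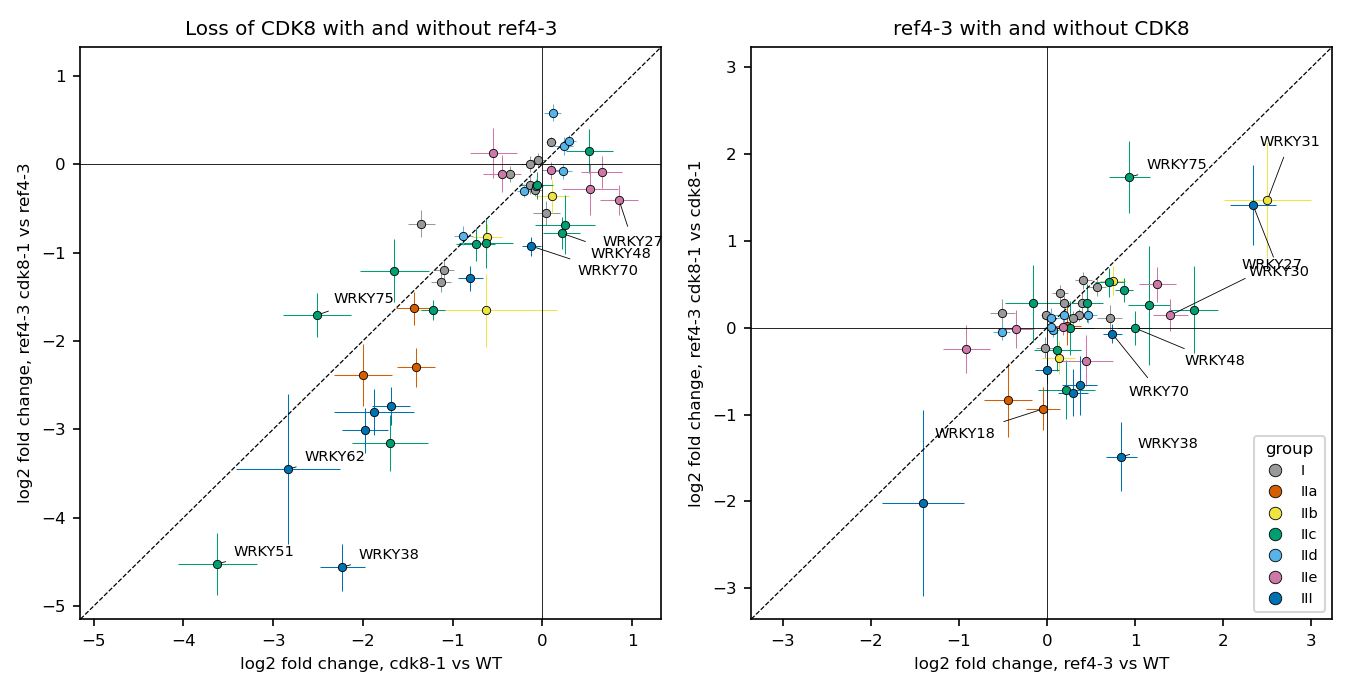
Log2 fold changes (points, ± SE) of the 47 members. The left panel plots the loss of CDK8 in the WT background against the same in ref4-3, and the right panel ref4-3 in the WT background against the same in cdk8-1; colours are structural groups and the dashed line marks equal effects. WRKY38, WRKY70, WRKY27 and WRKY48 lie below the line in both panels.

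For 4 members the combined effect departed from the sum of the single mutants, as tested by the interaction of ref4-3 with cdk8-1, where 5.13% of all genes were called, 3.07% higher and 2.05% lower. All 4 were lower in the double mutant than the sum would give. WRKY38 had no double mutant library over 1 CPM before normalisation, so its departure was partly fixed by the filter. WRKY38 departed by -2.33 ± 0.43 (adjusted p = 0.00438), with a log2 fold change for cdk8-1 of -2.23 ± 0.25 in WT and of -4.56 ± 0.27 in ref4-3. WRKY70 departed by -0.81 ± 0.15 (adjusted p = 0.00438), with the same log2 fold changes at -0.12 ± 0.11 and -0.93 ± 0.11. WRKY27 departed by -1.26 ± 0.27 (adjusted p = 0.0125), and while it was raised in each single mutant, the double was not called against ref4-3 (-0.40 ± 0.17, adjusted p = 0.0819) or cdk8-1 (0.14 ± 0.19, adjusted p = 0.59). WRKY48 departed by -0.99 ± 0.28 (adjusted p = 0.0451), a call that was lost when any of 11 libraries was left out, all but WT replicate 1, ref4-1 replicates 1 and 3 and ref4-3 replicate 1 (adjusted p up to 0.119). Upward departures numbered 0, in edgeR over all 15 libraries and in DESeq2, but 1 with the replicate block, 1 with only the genotypes compared, and up to 2 with 1 library left out (1 without WT replicate 2 or ref4-1 replicate 3, and 2 without ref4-3 replicate 3). In edgeR 16 members had an unadjusted p under 0.05. The share of all genes at this unadjusted threshold was not taken, and the 5.13% above is at adjusted p.

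Set against cdk8-1, the double mutant had 9 members higher and 4 lower, where 32.8% of all genes were called (16.4% in each direction), and the median of the members was 0.12 against 0.02. The summed leaf markers were 26500 to 26600 CPM against 37900 to 40600 in cdk8-1, with all 4 called lower, and their part in the result was not tested. Those lower were WRKY38 (-1.48 ± 0.40, adjusted p = 0.00748), WRKY18 (-0.93 ± 0.25, adjusted p = 0.00709), WRKY46 (-0.75 ± 0.27, adjusted p = 0.0404) and WRKY54 (-0.49 ± 0.15, adjusted p = 0.0143). WRKY38 had no double mutant library over 1 CPM before normalisation, so its fall was partly fixed by the filter. Among these 4, WRKY18 kept an adjusted p under 0.05 whichever library was left out. WRKY38 was lost without cdk8-1 replicate 2 (adjusted p = 0.0539), WRKY54 without cdk8-1 replicate 2 or ref4-3 cdk8-1 replicate 2 (up to 0.0979), and WRKY46 without 1 of 4 libraries, cdk8-1 replicates 2 and 3 and ref4-3 cdk8-1 replicates 1 and 2 (up to 0.143). With library sizes alone the counts were 15 higher and 3 lower, with the median of all genes at 0.13.

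Of the 9 members higher in the double mutant than in cdk8-1, WRKY75 and WRKY30 led. Neither had a cdk8-1 library over 1 CPM before normalisation, so both passed the filter only through other genotypes. WRKY75 had no such library in the double mutant either. The rise of WRKY30 was partly fixed by the filter. WRKY30 rose by 1.41 ± 0.46 (adjusted p = 0.0256), lost without cdk8-1 replicate 2, cdk8-1 replicate 3 or ref4-3 cdk8-1 replicate 3 (adjusted p up to 0.123). WRKY4 (AT1G13960, chr1:4776283-4779420), which like WRKY3 acts against necrotrophic fungi, stood at 20.8, 17.5 and 18.8 CPM in WT, 18.5, 17.7 and 15.6 in cdk8-1, 26.8, 24.1 and 25.03 in ref4-3 cdk8-1, 24.2, 20.8 and 21.1 in ref4-1, and 22.8, 27.7 and 25.4 in ref4-3, a rise of 0.55 ± 0.10 (adjusted p = 0.000256). WRKY6 (AT1G62300, chr1:23016569-23019494), a group IIb regulator of phosphate transport and senescence, stood at 15.6, 13.0 and 15.4 CPM in WT, 9.27, 8.76 and 10.6 in cdk8-1, 13.6, 12.9 and 15.2 in ref4-3 cdk8-1, 23.5, 15.1 and 24.5 in ref4-1, and 21.6, 25.1 and 27.1 in ref4-3. WRKY57 (AT1G69310, chr1:26054275-26058383), a drought-related IIc member, stood at 11.8, 7.78 and 7.06 CPM in WT, 8.93, 8.12 and 8.51 in cdk8-1, 12.1, 12.1 and 12.6 in ref4-3 cdk8-1, 10.9, 15.02 and 9.92 in ref4-1, and 14.04, 15.8 and 13.6 in ref4-3. The rise was 0.54 ± 0.17 (adjusted p = 0.0176) for WRKY6 and 0.52 ± 0.17 (adjusted p = 0.0221) for WRKY57. The call of WRKY57 was lost without cdk8-1 replicate 2, cdk8-1 replicate 3 or ref4-3 cdk8-1 replicate 3 (adjusted p up to 0.0721). That of WRKY6 was lost without cdk8-1 replicate 1, cdk8-1 replicate 2 or ref4-3 cdk8-1 replicate 3 (up to 0.0733).

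Against WT, the double mutant had 10 members higher and 19 lower, where 42.6% of all genes were called (21% higher and 21.6% lower), and 13 of the 19 were lower by at least 2-fold. The median of the members was -0.23, against 0.02 for all genes. WRKY62 (-4.86 ± 0.71, adjusted p = 2.59e-05), WRKY38 (-3.71 ± 0.29, adjusted p = 1.21e-08), WRKY51 (-3.36 ± 0.39, adjusted p = 1.87e-06), WRKY40 (-2.82 ± 0.34, adjusted p = 2.66e-06) and WRKY53 (-2.64 ± 0.27, adjusted p = 2.87e-07) were lowest. On the other side, WRKY22 (1.16 ± 0.21, adjusted p = 0.000258) and WRKY27 (1.00 ± 0.20, adjusted p = 0.000699) stayed above WT. WRKY57 (0.47 ± 0.16), WRKY4 (0.41 ± 0.09) and WRKY39 (0.39 ± 0.10) were higher by less, and the call of WRKY57 was lost without 1 of 5 libraries (adjusted p up to 0.154), WT replicates 2 and 3 and any of the double mutant. WRKY39 (AT3G04670, chr3:1266056-1268378), a heat-responsive gene of group IId, stood at 25.6, 18.5 and 20.7 CPM in WT, 26.6, 25.7 and 24.1 in cdk8-1, 26.6, 28.9 and 29.4 in ref4-3 cdk8-1, 26.5, 23.9 and 21.4 in ref4-1, and 23.6, 23.8 and 26.4 in ref4-3.

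By structural group, the members lower in cdk8-1 than in WT were 3 of 3 tested in group IIa (median -1.43) and 6 of 7 in group III (median -1.88). They were 6 of 11 of group IIc (median -0.74), 4 of 11 of group I (median -0.14), 1 of 3 of group IIb (median -0.62), 1 of 6 of group IId (median 0.17) and 0 of 6 of group IIe (median 0.32). Among those lower, the falls of WRKY30 and WRKY62 of group III and of WRKY51 and WRKY75 of group IIc were partly fixed by the filter. The group III median is the value of WRKY30. In ref4-3 cdk8-1 against ref4-3, 7 of 7 members of group III were lower (median -2.80, again that of WRKY30). The falls of WRKY38 and WRKY62 there were partly fixed by the filter. Of the rises in the MED5B mutants, group IIc had 7 of 11 members higher in ref4-1 and 6 of 11 in ref4-3, group I had 2 and 6 of 11, and group IIa had 0 of 3 in both. Among the 7, the call of WRKY28 was lost without any of 9 libraries (adjusted p up to 0.178). That of WRKY75 was lost without any of 12 (up to 0.128), and that of WRKY8 without any of 2 (up to 0.0774). Over all genes, 11.8% were lower in cdk8-1, 17% lower in the double mutant than in ref4-3, 10.7% higher in ref4-1 and 20.3% higher in ref4-3, and whether any group differs from these shares was not tested.

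WRKY12, WRKY13, WRKY14, WRKY16, WRKY47 and WRKY69 were not called in any of the 8 comparisons. WRKY12 and WRKY13 are regulators of stem cell walls, and WRKY16 joins a WRKY domain to an immune receptor. WRKY16 was the best measured of them, at 28.1 to 40.9 CPM over all libraries. Of the members too low to test, WRKY55 is the neighbour of WRKY54, 919 bases away. Its counts over 3 libraries were 6 for WT, 8 for cdk8-1, 14 for the double mutant, 24 for ref4-1 and 40 for ref4-3, and its highest CPM was 1.37. WRKY41, the relative of WRKY53, had 4 for WT, 3 for cdk8-1, 2 for the double mutant, 18 for ref4-1 and 24 for ref4-3, with a highest CPM of 0.686. On the opposite strand, WRKY41 overlaps AT4G11080 by 517 bases and WRKY69 overlaps AT3G58720 by 373. Whether strand was used in counting them is not given, as for WRKY53. WRKY9, WRKY35 and WRKY72 had a highest CPM of 0.527, 0.829 and 0.457.

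Kinases that phosphorylate WRKY proteins and VQ proteins that bind them were examined as a list of 23 genes, 21 of them tested. Of all genes tested, 11.8% were lower in cdk8-1, and 17% were lower in the double mutant than in ref4-3. In cdk8-1, 10 were lower and 0 higher (median -0.27), with the smallest adjusted p for MPK3 (-0.56 ± 0.06, adjusted p = 4.34e-06), MKK4 (-0.59 ± 0.08, 2.25e-05) and VQ10 (-2.60 ± 0.38, 8.37e-05). MKK4 and MPK3 belong to a cascade that acts on WRKY33. In ref4-3, 6 were higher and 2 lower (median 0.18), a share near the 39.9% of all genes called there, and the smallest adjusted p belonged to VQ33 (1.74 ± 0.18, adjusted p = 6.48e-07), MKK1 (0.60 ± 0.09, 3.27e-05) and MPK11 (1.00 ± 0.20, 0.000583). In the double mutant against ref4-3, 13 were lower and 0 higher (median -0.54), led by MKK4 (-0.90 ± 0.07, 3.71e-08), MPK3 (-0.73 ± 0.06, 5.58e-08) and MPK11 (-2.01 ± 0.21, 9.13e-07).

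Genes described as targets of WRKY proteins formed a list of 19, of which 15 were tested. Of all genes tested, 11.8% were lower in cdk8-1, and 17% were lower in the double mutant than in ref4-3. Shares in ref4-3 were 20.3% higher and 19.6% lower. In cdk8-1, 8 were lower and 0 higher (median -0.94). PAD3, the last enzyme of camalexin synthesis and a target of WRKY33, had the smallest p (-3.64 ± 0.24, adjusted p = 7.23e-09), followed by PR1, a marker of salicylic acid responses (-4.56 ± 0.43, 6.37e-07), and CYP71A13, an earlier camalexin enzyme (-2.51 ± 0.30, 1.01e-05). In ref4-3, 8 were higher and 4 lower (median 0.58). The salicylic acid synthesis genes PBS3 (1.65 ± 0.17, adjusted p = 4.61e-07) and ICS1 (1.03 ± 0.13, 4.94e-06) rose there, while PAD3 fell (-1.43 ± 0.19, 8.48e-06). In the double mutant against ref4-3, 11 were lower and 0 higher (median -1.42), with ICS1 at -1.78 ± 0.13 (adjusted p = 1.26e-08), PBS3 at -2.35 ± 0.18 (1.26e-08) and EDS1, a hub of salicylic acid dependent immunity, at -1.05 ± 0.08 (3.10e-08).

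Genes induced within minutes of touch or wounding, a class to which WRKY40 and WRKY18 also belong, formed a list of 14. Of all genes tested, 11.8% were lower in cdk8-1, while 20.3% were higher and 19.6% lower in ref4-3. In cdk8-1, 12 of the 14 were lower and 0 higher (median -1.30), led by TCH3, a calmodulin-like protein (-2.16 ± 0.10, adjusted p = 4.32e-11), SZF1 (-0.95 ± 0.10, 3.44e-06) and ERF4 (-1.17 ± 0.14, 7.43e-06). In ref4-3, 3 were higher and 7 lower (median -0.45). The list summed to 389 to 419 CPM in WT, 144 to 172 in cdk8-1, 113 to 130 in the double mutant, 335 to 380 in ref4-1 and 278 to 339 in ref4-3. TCH3 weighs heavily in these sums. Its means were 195.8 CPM in WT, 43.8 in cdk8-1, 11.3 in the double mutant, 147.8 in ref4-1 and 105.5 in ref4-3. Within genotypes, over the deviations of 15 libraries from their genotype means, the Pearson correlation with this list was 0.595 for WRKY40, 0.55 for WRKY18, 0.072 for WRKY33 and -0.004 for WRKY53. Of the 47 members, 6 had such a correlation above 0.5 and 5 below -0.5. The part of this response in the levels of WRKY members was not tested.

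Of the 6 senescence genes, all were higher in ref4-3 (median 2.02), led by ORE1 (2.75 ± 0.19, adjusted p = 3.94e-09), SAG21 (1.14 ± 0.14, 3.81e-06) and NAP (2.96 ± 0.37, 5.69e-06). ORE1 and NAP are the NAC transcription factors that drive leaf ageing. Of all genes tested, 20.3% were higher in ref4-3 and 10.7% in ref4-1, and 11.8% were lower in cdk8-1. Shares in the double mutant against WT were 21% higher and 21.6% lower. In ref4-1, 5 of the 6 were higher, and in cdk8-1, SAG21 and SAG13 were lower. In the double mutant against WT, 4 of the 6 were higher and 1 was lower, led by ORE1 (2.48 ± 0.20, adjusted p = 1.32e-08), SGR1 (0.76 ± 0.10, 1.05e-05) and NAP (1.94 ± 0.41, 0.000869). WRKY53, which promotes senescence, was lower there, as given above. Against ref4-3, 4 of the 6 were lower in the double mutant and 0 higher (median -0.83), where 17% of all genes were lower. These were led by SAG13 (-1.98 ± 0.25, adjusted p = 7.3e-06), SAG21 (-0.65 ± 0.13, 0.000879) and NAP (-1.02 ± 0.28, 0.0094).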

How the data were processed

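Polyadenylated RNA was sequenced in 15 stranded libraries (per the labels' protocols). Trimmomatic, TopHat2 2.1.0, HTSeq 0.6.1 and edgeR are named with the build TAIR10, per the submitters' processing notes. Whether counting used strand is not given in the sources used here. Raw read counts per gene were deposited by the authors, with totals of reads outside genes (0.667 to 1.05% without a feature, 1.63 to 6.67% ambiguous and 2.37 to 6.62% not unique), which were left out.

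Genes over 1 CPM in at least 3 libraries were kept. Counts were scaled by TMM and fitted with edgeR 4.0.16 (R 4.3.3) in 1 quasi-likelihood model of genotype over all 15 libraries, with a prior count of 0.125. Adjusted p-values are Benjamini-Hochberg values over all 18935 genes and were called under 0.05. The SE is the log2 fold change over the square root of F. The fit was tested on simulated counts. Replicates differed beyond sampling noise (chi-square per degree of freedom 2.67 to 14.7). The values of 14.7 and 11.5 belonged to pairs with ref4-1 replicate 3, and all other pairs were at 6.19 or below. That library also had the fewest gene counts (9573567) and the highest share not unique (6.62%). CPM values are normalised.

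The members, gene lists and tests were chosen with earlier results of these data known. Every member past the filter could be named. Values per library were given for the up to 5 greatest rises and 5 greatest falls in each comparison, for interaction calls, and for WRKY18, 33, 40, 46, 53, 54, 60, 70 and 75. In each gene list, at most the 3 genes of lowest adjusted p were named per comparison. Alternatives were RLE scaling, library sizes alone, no filter, DESeq2 1.42.0, only the genotypes compared, a replicate block and leaving out each library.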

Additional observations from a re-analysis of the deposited data

Results flagged for a closer look

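For 4 members the effect of cdk8-1 differed between the WT and the ref4-3 background, as tested by the interaction term in edgeR, where 5.13% of all genes were called, 2.05% lower. The difference in log2 fold change was -2.33 for WRKY38 (adjusted p = 0.00438), -0.81 for WRKY70 (adjusted p = 0.00438), -1.26 for WRKY27 (adjusted p = 0.0125) and -0.99 for WRKY48 (adjusted p = 0.0451). The call of WRKY48 was lost when any of 11 of the 15 libraries was left out (adjusted p up to 0.119). WRKY38 had no double mutant library over 1 CPM before normalisation, so its difference was partly fixed by the filter.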

How the results depend on the processing

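No called log2 fold change reversed under the alternatives that gave it a value; with only the genotypes compared, 141 of the 143 had one (not WRKY62 in the double mutant against ref4-3 or WRKY75 in the double mutant against cdk8-1). Of these 143 called values, 132 kept their call in DESeq2, 137 with library sizes alone, 142 with RLE scaling, 140 without the filter, 141 with the replicate block and 134 with only the genotypes compared, and 108 kept it whichever library was left out. The 2 members lower in ref4-1 became 0 with library sizes alone, with only the genotypes compared and in DESeq2, and 1 without the filter (0 to 2 with 1 library left out). Members higher in ref4-3 than in ref4-1, 0 as reported, were 3 with library sizes alone, 2 without the filter and 1 in DESeq2 (0 to 2 with 1 library left out, and 0 to 1 lower). Those higher in the double mutant than in cdk8-1, 9 as reported, were 15 with library sizes alone. Upward interactions, 0 as reported, were 1 with only the genotypes compared. With 1 library left out, members higher numbered 11 to 17 in ref4-1, 1 to 4 in cdk8-1, 5 to 11 in the double mutant against cdk8-1 and 0 to 2 for the interaction, and members lower 1 to 5 in the double mutant against cdk8-1 and 3 to 5 for the interaction. Members lower in cdk8-1 numbered 17 to 21, and in the double mutant against ref4-3 26 to 29. The cause of these changes was not tested. The falls of WRKY62 and WRKY75 rest on 0 to 13 counts per library without CDK8. Those of WRKY51 and WRKY30 in cdk8-1 rest on few counts as well, at means of 0.442 and 0.464 CPM there.

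Replicate numbers are shared between genotypes, and the labels do not say whether they pair the samples. Of 21 same-numbered pairs, 4 correlated over 0.1 (range -0.207 to 0.195). Pairs with different numbers were not compared, so these values cannot exclude a pairing. With the replicate block, 2 members were higher in ref4-3 than in ref4-1 and 1 showed an upward interaction, both 0 without it, 30 instead of 28 were lower in the double mutant than in ref4-3, and 6 instead of 4 showed a downward interaction.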

Other observations

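Among 1326 pairs of member promoters (300 bases each, TAIR10.1), the longest run of identical bases was 19, shared by the group III relatives WRKY41 and WRKY53, both on chromosome 4. It began 80 bases before the start of WRKY41 and 73 before that of WRKY53 and held a W-box on the opposite strand, in capitals: ttGGTCAAattttcaaaca. The next longest shared run, between WRKY20 and WRKY40, was 15 bases. The counts of WRKY41, too low to test, are given beside those of its relative above.

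WRKY70 alone accounted for 13.5 to 14% of the summed CPM of the 52 members in WT, for 16.5 to 18% in ref4-1, for 17.7 to 19.1% in ref4-3, for 13.8 to 18.4% in cdk8-1 and for 14.8 to 15.3% in ref4-3 cdk8-1. The cdk8-1 range overlapped those of all other genotypes.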
